A study of Saccharomyces cerevisiae with 4 samples.

Results

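The genes described here encode the proteins of the cytosolic ribosome of the yeast Saccharomyces cerevisiae. They were chosen by name. Every gene model that the authors had tested was taken when its systematic name maps to a symbol of the R64 annotation made of RPL, RPS or RPP, a number and an optional copy letter. The pattern fits 138 genes of R64. It found 123 tested models under 110 names among the 5364 genes with a tested model, and 109 of the names are ribosomal protein genes. The other is RPP1, a subunit of the tRNA-processing enzyme RNase P, which is left out of all counts below. It had an FPKM of 126 in the minimal glycolysis strain and 103 in the reference strain (log2 ratio 0.29, q = 0.998 in the authors' deposited table).

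A ribosome is built from ribosomal RNA and one copy of most of its proteins, so a growing cell needs the products of these genes in matched amounts. RPL genes encode proteins of the large subunit, RPS genes those of the small subunit, and RPP genes the acidic proteins of the stalk, a flexible arm of the large subunit that recruits translation factors. Most yeast ribosomal protein genes exist as a pair, named A and B, left by an ancient genome duplication. In a cell growing fast on glucose their messages are among the most abundant, and introns are much more common in them than in other yeast genes.

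The minimal glycolysis strain, IMX372, is compared with its reference, CEN.PK113-7D. IMX372 lacks 13 minor paralogs of glycolysis and alcoholic fermentation. Of these, GLK1 is replaced by a Schizosaccharomyces pombe His5 marker, HXK1 by a Kluyveromyces lactis LEU2 marker and TDH1 by a Kluyveromyces lactis URA3 marker, and the others are ADH2, ADH4, ADH5, ENO1, GPM2, GPM3, PDC5, PDC6, PYK2 and TDH2. It also carries the auxotrophic alleles ura3-52 and his3-1 and an auxotrophic leu2 allele, none of which the reference has, and the effects of alleles, markers and deletions cannot be told apart. Both strains are MATa MAL2-8c SUC2. Cells grew with aeration in batch bioreactors, on 20 g/L glucose in a synthetic medium held at pH 5 and 30 °C, and were sampled for RNA in the middle of exponential growth. There are 2 libraries per strain, and the labels do not say outright that these came from separate cultivations, so the spread behind the authors' test may be technical.

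The unit of expression is FPKM, which is scaled to the length of the model and to the size of the library. In the deposited table the authors give 1 FPKM for each model in each strain, from both libraries together, so there is no SD and the depth behind a value is unknown. A log2 ratio is the FPKM of the minimal glycolysis strain over that of the reference strain. A gene counts as called when the q-value of the authors' Cuffdiff test is at most 0.05. As a check of the labels, the deleted gene GPM3 stands at 0 for the minimal glycolysis strain and at 57.7 FPKM for the reference strain (q = 0.00735 in the authors' deposited table). Of the other deleted genes, 10 have 0 for either strain without a test and check nothing. Of the mating type a genes, MFA1 had 37538 FPKM in the minimal glycolysis strain and 33795 FPKM in the reference strain. In the same order, STE2 had 990 and 971 FPKM, MFA2 56430 and 61347, BAR1 139 and 140, and STE6 74.3 and 81.8. The alpha-cell gene STE3 was at 7.63 FPKM in the minimal glycolysis strain and 9.97 FPKM in the reference strain. The alpha-cell genes MF(ALPHA)1 and MF(ALPHA)2 were at 4.41 and 35.3 FPKM in the minimal glycolysis strain, and at 6.45 and 32.3 FPKM in the reference strain.

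The names of the A and B copies need care in this table. In it, 13 names stand on 2 models each. Read against the order of genes in R64, 17 models lie between the neighbours of the other copy of their pair, with at least 5 of 6 neighbouring genes in agreement. Of these, 13 share their name with a model at the copy's own place. The other 4 are the only model of the name, such as the models named RPL15B, RPL1A and RPL42A, which lie at the places of RPL15A, RPL1B and RPL42B. At 15 of the loci no model lies at all, among them those of RPL41A, RPL41B, RPS30A and RPS30B, so these proteins have no value here. Values below go by the name in the table, longest model first, unless a copy is said to be placed by its neighbours.

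None of the ribosomal protein genes was called. Of the 109 genes, 0 had a q of at most 0.05 in the authors' deposited table, beside 0.764% of all tested genes, of which 0.522% were higher and 0.242% lower. By fold, 0 differed by at least 1.5-fold, beside 1.38% of all tested genes, and 1 had an unadjusted p of at most 0.05 in the authors' deposited table, beside 3.21% of all tested genes. Most ratios were small but leaned one way. The log2 ratio was above 0 for 92 genes and below 0 for 17, a share of 84.4% above 0 beside 53% of all tested genes. Its median was 0.10 with quartiles of 0.03 and 0.17, beside a median of 0.01 with quartiles of -0.08 and 0.11 over all genes. The ratio lay within 0.25 of 0 for 106 of the 109. Their median FPKM was 3676 in the minimal glycolysis strain and 3361 in the reference strain.

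Other genes of up to 900 bases also had medians above 0. Up to 300 bases of coding length, the median log2 ratio was 0.10 for 13 ribosomal protein genes and 0.08 for 136 other genes. The shares above 0 were 76.9% and 72.1%. Over 300 and up to 600 bases, the medians were 0.11 for 74 ribosomal protein genes and 0.08 for 615 other genes. Of these, 86.5% and 68.1% lay above 0. Over 600 and up to 900 bases the medians were 0.10 for 19 ribosomal protein genes and 0.07 for 821 other genes, and 94.7% and 68.8% lay above 0. Over 900 and up to 1200 bases the ribosomal protein genes went the other way: all 3 of them, RPP0, RPL4B and RPL3, lay below 0 with a median of -0.08, while 833 other genes had a median of 0.04. The 197 other genes with a mean FPKM of at least 1000 had a median of 0.01. When level, length and GC content of the coding sequence were fitted and taken out, the median was 0.09 for the ribosomal protein genes and 0.02 for all genes. The shares above 0 were then 78.9% and 54.6%.

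**Figure D1:**
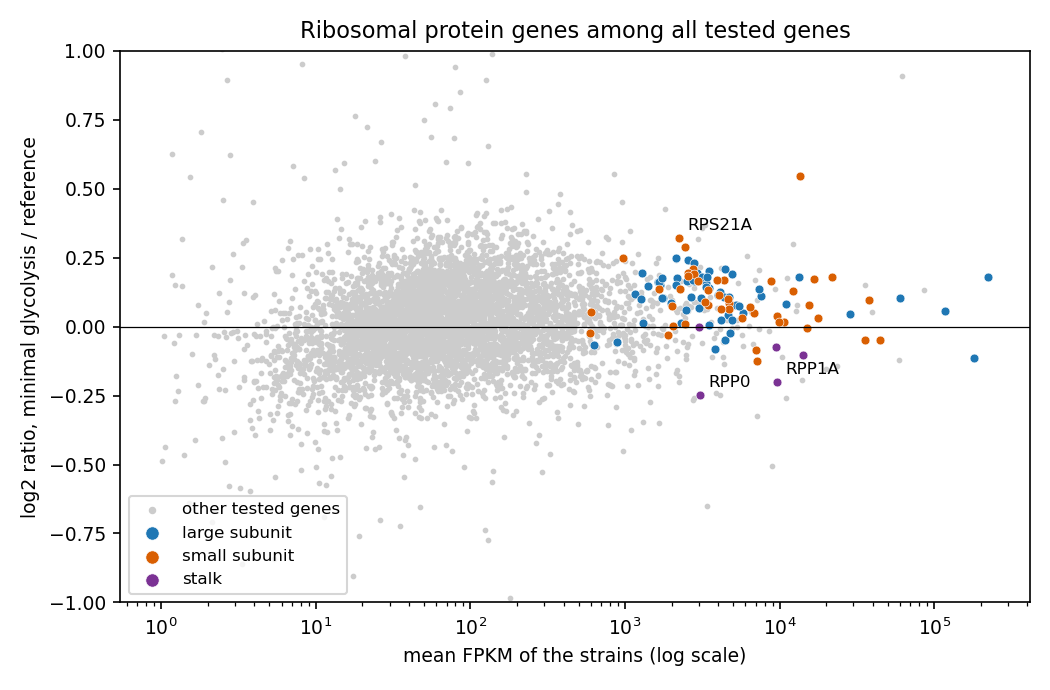
Log2 ratio of FPKM, minimal glycolysis strain over reference strain, against the mean FPKM of both strains on a log axis, 1 point per gene. Blue, orange and purple points are large subunit, small subunit and stalk genes, and grey points are 5214 of 5253 other genes. The 39 others are not shown, for a very low mean FPKM or a ratio outside the axes. The coloured points sit at the right, 106 of 109 within 0.25 of 0, with the stalk genes RPP0 and RPP1A lowest.

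Of the 59 large subunit genes, 53 had a log2 ratio above 0 and 6 below, with a median of 0.11 and quartiles of 0.06 and 0.17. Their median FPKM was 3498 in the minimal glycolysis strain and 3136 in the reference strain. RPL27A (chromosome 8, 119678 to 120652 of the CEN.PK113-7D assembly) had 2305 FPKM in the minimal glycolysis strain and 1940 FPKM in the reference strain (log2 ratio 0.25). RPL21B followed with 2751 and 2329 FPKM (0.24). RPL22A, whose protein is also known to act on the splicing of its partner's transcript, had 3007 and 2562 FPKM (0.23). At the low end stood RPL37A with 173083 FPKM in the minimal glycolysis strain and 187404 FPKM in the reference strain (-0.11), and RPL4B with 3720 and 3936 FPKM (-0.08). The smallest p among the large subunit genes was 0.142, for RPL27A, and all had a q of 0.998 in the authors' deposited table.

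Of the 45 small subunit genes, 38 had a log2 ratio above 0 and 7 below, with a median of 0.08 and quartiles of 0.03 and 0.17. Their median FPKM was 4607 in the minimal glycolysis strain and 4098 in the reference strain. Both copies of RPS21, whose protein takes part in maturation of the small subunit RNA, had log2 ratios above those of most small subunit genes. RPS21A (chromosome 11, 551630 to 552215) had 2485 FPKM in the minimal glycolysis strain and 1990 FPKM in the reference strain, with a log2 ratio of 0.32. RPS21B (chromosome 10, 139116 to 139839) had 2694 and 2206 FPKM, with a log2 ratio of 0.29. Their p-values in the authors' deposited table were 0.0517 and 0.0861, and both had a q of 0.998. In R64 their coding sequences, 90.9% identical, share no run of 51 bases, the read length. Only exact runs were counted, so whether reads of one copy align to the other with mismatches was not tested. RPS14B had a log2 ratio of 0.25 and RPS10A one of 0.21. RPS15, which is needed for export of the small subunit from the nucleus, was lowest with 6859 FPKM in the minimal glycolysis strain and 7487 FPKM in the reference strain (-0.13), and RPS9A followed (-0.08).

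Of the 5 stalk genes, 4 had a log2 ratio below 0, and RPP1B had one of 0.00. RPP0, the protein that anchors the stalk to the large subunit (chromosome 12, 790901 to 791839), had 2797 FPKM in the minimal glycolysis strain and 3321 FPKM in the reference strain. Its log2 ratio of -0.25 was the lowest of all 109 genes. RPP1A and RPP1B encode the P1 proteins of the stalk. RPP1A had 8999 and 10353 FPKM (-0.20), and RPP1B had 3012 FPKM in both strains (0.00). RPP2A and RPP2B encode the P2 proteins, which pair with P1. RPP2A had 9258 FPKM in the minimal glycolysis strain and 9748 FPKM in the reference strain (-0.07), and RPP2B had 13653 and 14657 FPKM (-0.10). The median of the 5 was -0.10, beside 0.11 for the large subunit genes, and their FPKM were 2797 to 13653 in the minimal glycolysis strain and 3012 to 14657 in the reference strain. None was called: the smallest p was 0.16, for RPP0, and all had a q of at least 0.998 in the authors' deposited table. With level, length and GC content taken out, all 5 lay below 0, from -0.22 to -0.03. RPP0 then stood at -0.21 and was no longer the lowest of the 109 genes, which was RPL37A at -0.27. The difference between stalk genes and the others was not tested, since pooled values give no spread for it.

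Genes with an intron lay a little higher than those without. In R64, 69 of the 109 have an intron. Their median log2 ratio was 0.14, with 63 above 0 and 6 below, and that of the 40 genes without an intron was 0.06, with 29 above 0 and 11 below. Within coding lengths over 300 and up to 600 bases the medians were 0.13 for 55 genes with an intron and 0.07 for 19 without. Over 600 and up to 900 bases they were closer, 0.12 for 7 genes with an intron and 0.09 for 12 without. The stalk genes RPP0, RPP1A, RPP2A and RPP2B, all below 0, are among the 40 genes without an intron. Whether they account for the difference was not tested. Among all other genes the median was 0.03 for 159 with an intron and 0.01 for 5056 without. Levels cannot be set against each other as easily. Median FPKM was 2889 in the minimal glycolysis strain and 2562 in the reference strain for genes with an intron, and 8439 and 7904 for those without. The models of most intron genes span the intron. Over all 123 models, with RPP1 and the genes without an intron included, 104 match the length of the R64 gene with introns within 1%. Whether intron bases enter the length that FPKM divides by is not given in the sources used here.

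**Figure D2:**
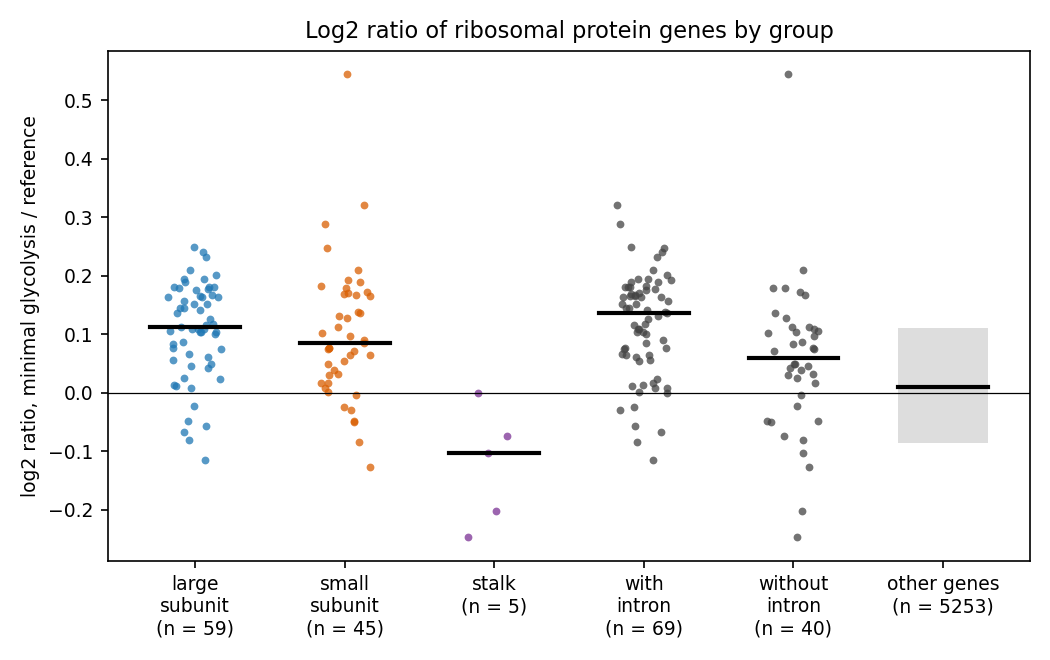
Log2 ratio of FPKM, minimal glycolysis strain over reference strain, for ribosomal protein genes by subunit and by presence of an intron, 1 point per gene, with black bars at the medians. The grey box spans the quartiles of 5253 other genes. Medians are 0.11, 0.08 and -0.10 for large subunit, small subunit and stalk genes, and 0.14 and 0.06 for genes with and without an intron.

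Genes present in 1 copy had log2 ratios close to those of the pairs, at a higher median FPKM. That median was 9918 in the minimal glycolysis strain and 9807 in the reference strain, beside 3286 and 3003 for genes with 2 copies. Of the 19 single-copy genes, 15 had a log2 ratio above 0 and 4 below, with a median of 0.08, and of the 90 with 2 copies in R64, 77 were above and 13 below, with a median of 0.11. RPL25, which lies at the exit of the peptide tunnel and binds nascent-chain factors, had 5242 FPKM in the minimal glycolysis strain and 4599 FPKM in the reference strain (0.19). RPL39, a very small protein of the tunnel wall, had 238042 and 209914 FPKM (0.18), and with level, length and GC content taken out its value was 0.00. That fit includes RPL39, the member with the highest FPKM, so it may follow the gene's own value. RPS31, made as a fusion to ubiquitin, had 23026 and 20329 FPKM (0.18). The lowest were RPP0, RPS15 and RPL3, a protein close to the peptidyl transferase centre, which had 4374 FPKM in the minimal glycolysis strain and 4523 FPKM in the reference strain (-0.05).

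The level of these genes varied far more between genes than between strains. Across the 109 genes, log2 FPKM of the strains had a Pearson correlation of 0.9976, given as a description, since all genes share the same libraries. The lowest levels belonged to RPS7B with 588 FPKM in the minimal glycolysis strain and 599 FPKM in the reference strain, RPS22B with 613 and 590 FPKM, RPL22B with 614 and 644 FPKM and RPL6B with 871 and 906 FPKM. All are B copies with a lower FPKM than their A copy, and so is RPS14B, the fifth lowest. The highest were RPL39, RPL37A, RPL30 with 119046 and 114544 FPKM, RPL29 with 62054 and 57697 FPKM and RPS29B with 43762 and 45239 FPKM. The length of the model moves with these high values. The models of RPL39, RPL37A and RPL30 span 120, 78 and 138 bases, less than the R64 coding sequence of each gene. Over the 109 genes FPKM and model span had a Spearman correlation of -0.717, and FPKM itself is divided by length. Ribosomal protein genes held 45.5% of the summed FPKM of all tested genes in the minimal glycolysis strain and 45.4% in the reference strain. With models of at least 300 bases only, the shares were 34.4% and 33.1%.

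On chromosome 3, a set of 10 neighbouring models that begin with MAK32 and end with RHB1 (152512 to 167673) was called higher in the minimal glycolysis strain, and RPS14A lies 4 models beyond RHB1. RPS14A (177179 to 177899) encodes a protein of the small subunit platform. It had 4876 FPKM in the minimal glycolysis strain and 4597 FPKM in the reference strain, a log2 ratio of 0.08. That is 1.06-fold, against a median of 2.05-fold over those 10 models. Its copy RPS14B on chromosome 10 had 1050 and 884 FPKM, a log2 ratio of 0.25.

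In 33 pairs both copies have a model under their own name. The A copy had the higher FPKM in 23 of these pairs in the minimal glycolysis strain and in 22 in the reference strain. The median share of the A copy in the summed FPKM of its pair was 57.2% in the minimal glycolysis strain and 58.0% in the reference strain, and in the minimal glycolysis strain the shares ran from 21.1% to 98.4%. In 10 pairs the copies were at least 2-fold apart in the minimal glycolysis strain. Models of unequal span touch these levels: in 13 pairs the spans differ by more than 10%, and the shorter model had the higher FPKM in 8 of them. In the 20 pairs with alike spans the A copy was higher in 14 pairs in the minimal glycolysis strain and 13 in the reference strain. The median A share was 57.4% and 58.1%. Of these 20 pairs, 4 had copies at least 2-fold apart in the minimal glycolysis strain.

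In some pairs 1 copy held most of the summed FPKM. The A share of RPS22, a small subunit protein, was 94.1% in both strains, from 9726 FPKM for RPS22A and 613 FPKM for RPS22B in the minimal glycolysis strain. RPS22A, without an intron, has a model of 393 bases, and RPS22B, with an intron, one of 867 bases. For RPL22 the A share was 83.0% in the minimal glycolysis strain and 79.9% in the reference strain. For RPS14 it was 82.3% and 83.9%, from models of 721 and 825 bases, and for RPS7 80.6% and 80.2%. RPL37 had an A share of 98.4% and 98.6%, but its A model spans 78 bases and its B model 656. Other pairs leaned to the B copy. The A share of RPL36 was 21.1% in the minimal glycolysis strain and 21.0% in the reference strain, that of RPL13 25.4% and 25.1%, and that of RPL8 29.4% and 29.7%. The A and B models span 766 and 541 bases for RPL36, and 965 and 606 bases for RPL13. RPL26 (37.9% and 38.9%) and the stalk pair RPP2 (40.4% and 39.9%) leaned the same way. RPL8 has copies with models of equal length, 771 bases, and no intron, so its share compares like with like: RPL8A had 2030 FPKM and RPL8B 4874 FPKM in the minimal glycolysis strain.

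Copies close to equal shares were those of RPS0, RPS21, RPL16 and RPS29. In the minimal glycolysis strain the A share was 50.4% for RPS0, 48.0% for RPS21, 52.3% for RPL16 and 47.3% for RPS29. In the reference strain it was 49.1% for RPS0, 47.4% for RPS21, 51.4% for RPL16 and 44.8% for RPS29. RPS0 was the 1 pair of the 33 in which the leading copy differed between strains, with RPS0A at 2077 and RPS0B at 2046 FPKM in the minimal glycolysis strain and 1972 and 2044 FPKM in the reference strain.

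**Figure D3:**
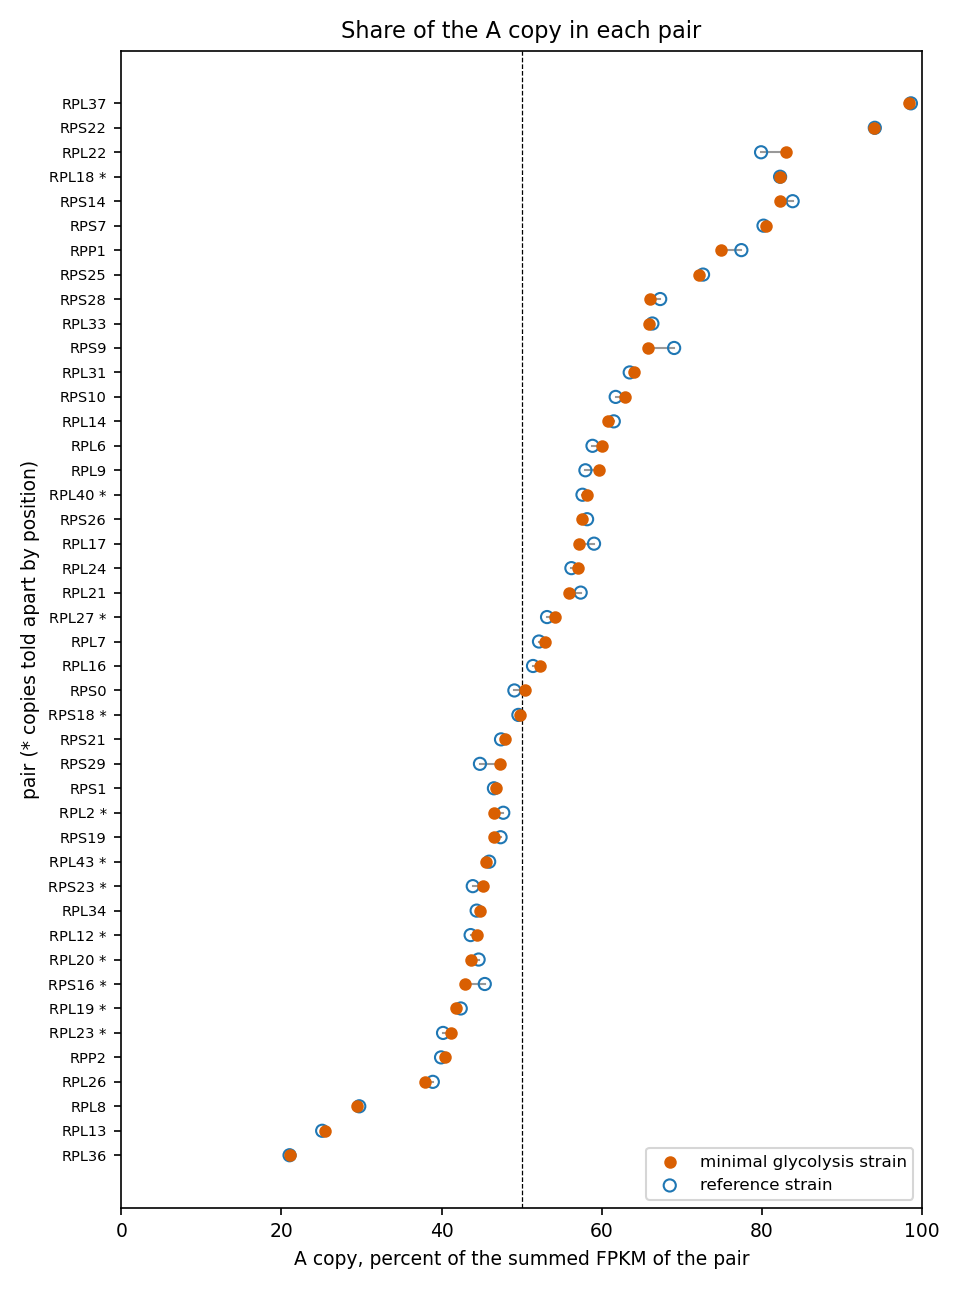
Share of the A copy in the summed FPKM of each pair, in percent, with filled orange points for the minimal glycolysis strain and open blue circles for the reference strain, and the dashed line at equal shares. Of the 44 pairs drawn, an asterisk marks 12 whose copies were placed by their neighbours. Shares range from 21.1% to 98.4% in the minimal glycolysis strain, and the leading copy is the same in both strains except in RPS0.

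The balance of the copies differed little between strains. The A share in the minimal glycolysis strain minus that in the reference strain ran from -3.27 to 3.11 percentage points over the 33 pairs, with a median size of 0.768 points. The log2 ratio of the A copy minus that of the B copy had a median of 0.009 and ranged from -0.28 to 0.30, above 0 in 17 pairs and below in 16. Both copies had a log2 ratio above 0 in 23 pairs and below 0 in 1, the P2 stalk pair. Across pairs the ratio of the A copy and that of the B copy had a Spearman correlation of 0.445, a description over 33 pairs that share their libraries. RPS21A and RPS21B, at 0.32 and 0.29, are the pair with both copies farthest above 0.

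The copies of 5 pairs were more than 0.15 apart. The widest was RPL22, where RPL22A had a log2 ratio of 0.23 and RPL22B one of -0.07, from 614 FPKM in the minimal glycolysis strain and 644 FPKM in the reference strain. Their proteins are 84.4% identical, and their coding sequences share no run of 51 bases. RPL37 followed, with RPL37A at -0.11 and RPL37B at 0.17, and RPS9, a protein known for its effect on translational accuracy, with RPS9A at -0.08 and RPS9B at 0.13. In both, the A model is short, 78 and 156 bases. The P1 stalk pair had RPP1A at -0.20 and RPP1B at 0.00, and its proteins are the least alike of the 46 pairs with a model for each copy, at 59.6% identity. RPS14 had its A copy at 0.08 and its B copy at 0.25, and RPS29, the sixth, its A copy at 0.10 and its B copy at -0.05. None of these copies was called, and the smallest p among them in the authors' deposited table was 0.131, for RPS14B (q = 0.998).

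**Figure D4:**
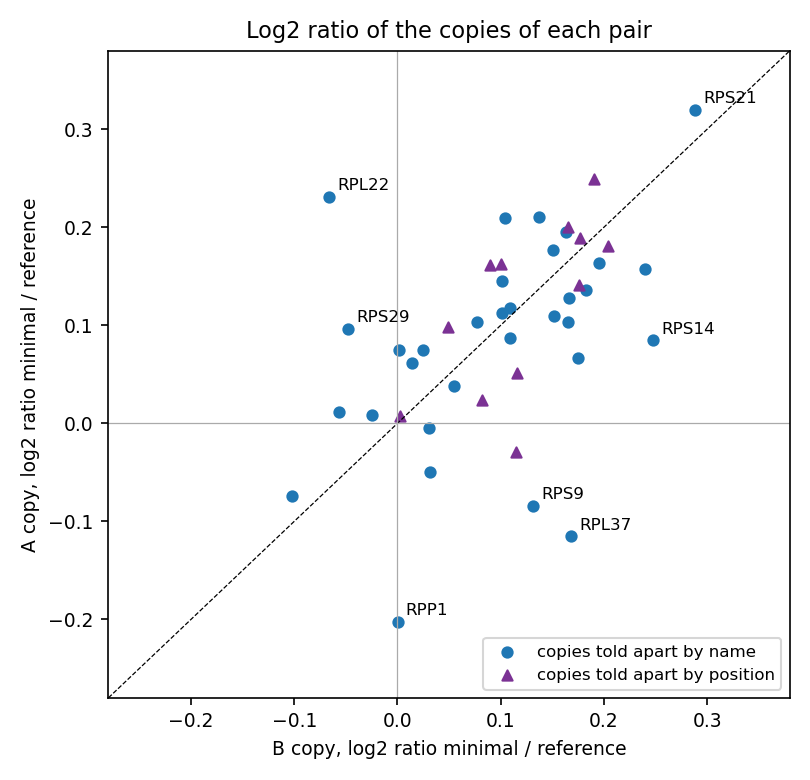
Log2 ratio of FPKM, minimal glycolysis strain over reference strain, of the A copy against that of the B copy, 1 point per pair, with the dashed line where both are equal. Blue circles are 32 pairs told apart by name and purple triangles 12 pairs told apart by their neighbours. Most points lie at the upper right, with RPL22 farthest above the line and RPL37, RPS9 and RPP1 farthest below it.

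A further 13 pairs had both copies in the table once the copies were placed by their neighbours, and 12 of these encode identical proteins. In them the A copy had the higher FPKM in 3 pairs in either strain, and the median A share was 45.1% in the minimal glycolysis strain and 45.4% in the reference strain. RPL18 was the most uneven, with an A share of 82.4% and 82.3%, and the same copy led in both strains in all 13. Over all 46 pairs the A copy was higher in 26 pairs in the minimal glycolysis strain and 25 in the reference strain, and the median A share was 52.9% and 52.5%.

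In 11 pairs only 1 copy has a model. A median of 60.6% of the 51-base runs of those genes occur in another gene, beside 2.98% for the 92 models of pairs with both copies present. Their median FPKM was 4607 in the minimal glycolysis strain and 4095 in the reference strain, with a median log2 ratio of 0.14, beside 3010 and 2653 FPKM and 0.10 for the pairs with both. Whether reads of the copy without a model were counted at the other was not tested.

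None of the listed genes that act on or with the ribosome was called, beside 0.764% of all tested genes. In lists this short, a count of 0 is near that share. The log2 ratio was above 0 for 53% of all tested genes. Of 20 regulators of ribosomal protein transcription, 10 had a log2 ratio above 0 and 10 below, with a median of 0.00. With level, length and GC content taken out, that median was 0.06, beside 0.02 for all genes and 0.09 for the ribosomal protein genes. IFH1, the coactivator that sits at ribosomal protein promoters with Fhl1, had 19.9 FPKM in the minimal glycolysis strain and 16.8 FPKM in the reference strain (0.24). LST8, a subunit of the TOR complexes (0.26), the DNA-binding protein gene CBF1 (0.24) and TOD6, a repressor of ribosome biogenesis genes (0.20), were the others farthest from 0.

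Among 13 dedicated chaperones and importers of ribosomal proteins, 11 had a log2 ratio above 0 and 2 below, with a median of 0.15. With level, length and GC content taken out, that median was 0.12. FAP7, an ATPase that handles Rps14 during small subunit assembly, had 267 FPKM in the minimal glycolysis strain and 190 FPKM in the reference strain (0.49, p = 0.0025 and q = 0.261 in the authors' deposited table). TSR2, the chaperone of Rps26, had 179 and 142 FPKM (0.33, p = 0.0428 and q = 0.998 in the authors' deposited table). LTV1, a small subunit assembly factor (0.25), and RRB1, the chaperone of Rpl3 (0.22), followed. These 2 of 13 with an unadjusted p of at most 0.05 stand beside 1.88% of all tested genes that were higher at that p.

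Of the listed translation factors, TEF1 and TEF2, which encode elongation factor 1A, EFT1, TIF2 and TIF3 have no ratio here. Among 12 genes with a value on the elongation factor list, 6 were above 0 and 6 below, with a median of 0.01. That list also holds GCN20, SUP35 and SUP45, which do not encode elongation factors. YEF3, the fungal elongation factor 3, had 1342 FPKM in the minimal glycolysis strain and 1530 FPKM in the reference strain (-0.19). EFT2, for elongation factor 2, stood at -0.11, and the weakly expressed HEF3 and ANB1 at -0.19 and -0.22. Among 25 genes with a value on the initiation factor list, 15 were above 0 and 10 below, with a median of 0.06. That list also holds GCD10, which does not encode an initiation factor. TIF11, for eIF1A (0.25), TIF35, an eIF3 subunit (0.20), and TIF4632, an eIF4G (0.19), stood highest, and PAB1, the poly(A)-binding protein, stood at -0.18. Of 14 ribosome-bound factors, 9 were above 0 and 5 below, with a median of 0.06, among them BTT1 (-0.24), a nascent polypeptide-associated complex subunit, TMA19 (0.20), and NAT5 (0.18) and ARD1 (0.16) of the N-terminal acetyltransferase NatA. Of 8 enzymes that modify ribosomal proteins, 7 were above 0, with a median of 0.08, led by the Rpl3 methyltransferase HPM1 (0.15), TAE1 (0.09), RKM4 (0.09) and RKM2 (0.08). With level, length and GC content taken out, the medians were 0.04 for the elongation list and 0.06 for the initiation list. They were 0.07 for the ribosome-bound factors and 0.08 for the modifying enzymes.

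The mitochondrial ribosomal proteins, which build the separate ribosome of that organelle, had more ratios below 0 than above. Of 67 genes, 21 had a log2 ratio above 0 and 46 below, with a median of -0.06. With level, length and GC content taken out, that median was -0.11. MRPL4 had 75.5 FPKM in the minimal glycolysis strain and 107 FPKM in the reference strain (-0.51, p = 0.0026 and q = 0.267 in the authors' deposited table). MRPL3 (-0.32), MRPL31 (-0.23) and MRP4 (-0.21) came next. Of the 67, 0 were called, beside 0.764% of all tested genes. MRPL4 was the 1 gene lower with an unadjusted p of at most 0.05, beside 1.32% of all tested genes.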

How the data were processed

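RNA was sequenced in 2 libraries of each strain, grouped by the strain label, from cDNA with a DNA library kit, per the labels' protocols, and such kits do not mark the strand. The submitters' processing notes name Cuffdiff, Cufflinks, SAMtools 0.1.7-r510, BWA 0.5.9-r16 and CASAVA 1.8.2. Reads were analysed on the CEN.PK113-7D genome, per the labels. The deposited table, a Cuffdiff comparison per the file headers, holds the authors' pooled FPKM per model and strain, their log2 ratio, their signed fold, their test score, their p-value and their q-value. It lists 5472 models, of which 5437 were tested. Library totals and values per library are not in it, so depth is unknown and the authors' test is the only one across libraries. Per-sample columns left unused numbered 0.

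Log2 ratios were recomputed from the FPKM with no pseudocount, and the authors' deposited log2 values are within 1.31e-05 of them. One model per gene, the longest tested one, was kept: 5364 genes, 5362 with a ratio. Symbols, gene order, introns, coding lengths and 51-base runs come from the R64 annotation of S288C, whose coordinates are not printed. Copies were placed by the 3 nearest named genes on each side. Coordinates are those of the CEN.PK113-7D assembly. The correction fits polynomials of degree 3 in expression level, coding length and GC content to genes not called, covers 99.3% of genes, fits 13.4% of the variance, and was checked on simulated data.

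Genes named in the text are every called member (0), the stalk genes, the 8 highest and 8 lowest log2 ratios, the 5 highest and 5 lowest FPKM, the 5 pairs with the highest, lowest and most equal A shares, the 6 pairs with the widest A minus B difference, the 3 highest and 3 lowest single-copy genes, members near the raised neighbours with their copies, and up to 4 genes per list. Pairs placed by neighbours were named after their values were seen. The genes and the lists were chosen with earlier results of these data known. Python 3.11.15, pandas 2.3.3, NumPy 2.4.6, SciPy 1.17.1, Biopython 1.88 and matplotlib 3.10.9 were used. Some genes that the rule selects are not reported here. Promoter motifs were not analysed here.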

Additional observations from a re-analysis of the deposited data

How the results depend on the processing

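The count of called ribosomal protein genes was 0 with a q of 0.05 or 0.01, with q recomputed from p, with a change of at least 1.5-fold, with every model and with RPP1 counted in, and 1 with an unadjusted p of at most 0.05. The median log2 ratio of 0.103 was the same to 3 decimals with 1 or 5 FPKM added, with the model of highest FPKM and with an FPKM of at least 10. It was 0.073 for the 56 genes that share no run of 51 bases, 0.086 after the correction for level, length and GC content, 0.092 when centred on all genes, 0.093 as a mean, and 0.104 with RPP1, with models covering at least 90% of the coding length, or with all 122 loci placed by neighbours. The median A minus B difference of 0.009 was 0.008 with 1 or 5 FPKM added, 0.003 after the correction, 0.028 for 17 pairs without shared runs, 0.012 with models covering at least 90% of the coding length and 0.01 over all 46 pairs, and the mean was -0.01, so its sign is not settled. The median A share in the minimal glycolysis and the reference strain was 60.0% and 59.1% without shared runs, 57.1% and 57.4% with that coverage, 57.4% and 58.1% with alike spans, and 52.9% and 52.5% over all 46 pairs. The settings with all loci, all 46 pairs and alike spans were added after seeing the data. The correction turned the sign of 10 of 110 genes, among them RPL3, RPL30 and RPS22B, and adding 1 FPKM moved 0 by more than 0.005. The cause of these differences was not tested.

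No paired analysis was possible because the table holds 1 pooled value per strain and no value per library, and leaving out a replicate could not be run for the same reason. The depth is unknown, so a ratio near 0 does not show that a gene was the same in both strains. Pairs with shared sequence, models shorter than the coding sequence and loci without a model limit the comparison of copies.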
